A study of Mus musculus with 20 samples.

Results

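Of the 3′UTRs counted in an AGO2 immunoprecipitation of mouse hippocampus, 346 were recovered more than 4-fold more strongly with GFP-AGO2 than without it, and these 346 are described here. They were chosen in 2 steps. First, a 3′UTR had to hold at least 10 counts in each of the 8 immunoprecipitated libraries, which 8203 of 38158 annotated 3′UTRs did (7680 genes). Second, its CPM (the usual depth-scaled count, each count taken relative to the total of its library), averaged over the 2 libraries with the miR-292 sponge, had to exceed 4 times the average over the 2 sham libraries. The 346 3′UTRs belong to 345 genes and make up 4.22% of those that passed the count minimum. Because this contrast chose them, their ratio of miR292sp to sham is given as a description without a test, and their lower level with another sponge is in part fixed by the choice.

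RIP-seq (sequencing of RNA that comes down with an immunoprecipitated protein) and mRNA-seq were performed on adult male C57BL/6 mice whose hippocampi had received AAV5 vectors. In the RIP experiment the vector carried GFP-AGO2 together with a sponge for miR-124 (miR124sp), for miR-125 (miR125sp) or for miR-292 (miR292sp), a miRNA that the brain lacks and that served as control sponge, and the sham-injected mice had no GFP-AGO2. Each of the 4 groups had 2 libraries, and each library pooled the lysate of 2 hippocampi. In the mRNA experiment 3 mice received GFP with miR124sp and were set against 3 mice with GFP alone, and 3 mice received GFP with miR125sp and were set against 3 other mice with GFP alone. A synapsin promoter drove every vector, so GFP-AGO2 and the sponges were made in neurons, whereas mRNA was taken from the whole hippocampus. The precipitation used a GFP antibody without crosslinking.

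AGO2 is the protein at the core of the RNA-induced silencing complex. It holds a miRNA, and the miRNA pairs with sites in 3′UTRs, above all through its bases 2 to 8, the seed. A bound mRNA is translated less and decays faster, largely through removal of its poly-A tail. A 3′UTR that comes down with GFP-AGO2 but not from sham tissue is therefore a candidate for a miRNA-bound 3′UTR in the cells that made GFP-AGO2. A sponge is a transcript with many sites for 1 miRNA, which competes with the natural targets of that miRNA.

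The sequences of 3 neuronal or widely expressed miRNAs are shown first, because matches to the seeds of let-7a and miR-29a were more frequent in the 346 3′UTRs than in the others, and because miR-125b is the target of 1 of the sponges. They are mature mouse miRNAs from RefSeq, written 5′ to 3′ with the seed in capitals.
let-7a-5p: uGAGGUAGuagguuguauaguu
miR-29a-3p: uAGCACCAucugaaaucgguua
miR-125b-5p: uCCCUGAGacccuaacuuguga

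The sites below lie in 3′UTRs with some of the highest ratios and stand for the 960 seed matches of 10 miRNAs found in them. The DNA letters are those of the transcribed strand from mm9 (NCBIM37), 5′ to 3′, and the capitals mark the stretch complementary to the seed (CTACCTC for let-7a, TGGTGCT for miR-29a, CTCAGGG for miR-125b).
Frat2, miR-29a, chr19:41921324-41921352, minus strand: ctttctgaataTGGTGCTacaattgcaga
Zbtb34, miR-29a, chr2:33265158-33265186, minus strand: ttttggtcatgTGGTGCTatttttatgtt
Kdm6b, miR-29a, chr11:69212529-69212557, minus strand: ccgggctctcaTGGTGCTcaaacctgctc
Irs1, miR-29a, chr1:82229938-82229966, minus strand: tctgaagatggTGGTGCTatcgacggtgc
Zswim5, let-7a, chr4:116661253-116661281, plus strand: cctccaactctCTACCTCaaacttcctct
Dhx8, let-7a, chr11:101628628-101628656, plus strand: tactcagatttCTACCTCctggaaatatt
Scrt2, let-7a, chr2:151921038-151921066, plus strand: attggccaccaCTACCTCctccaccgcgc
Ssh1, let-7a, chr5:114390448-114390476, minus strand: aaagtgagattCTACCTCagaagtagtaa
Zswim5, miR-125b, chr4:116660223-116660251, plus strand: cactgttccgtCTCAGGGattgcttaacc
Btg2, miR-125b, chr1:135973479-135973507, minus strand: tccctctcttaCTCAGGGgcattcaagcc
Foxo3, miR-125b, chr10:41903995-41904023, minus strand: gggtggaatgtCTCAGGGtggcagctgaa

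The RIP libraries held 2417942 to 5072501 counts in 3′UTRs and the mRNA libraries 6950522 to 27833176 counts in transcripts. Log counts of the 2 libraries of a RIP group correlated across 3′UTRs with r between 0.915 and 0.973. Neuron markers were present in every RIP group and took 1.17% to 1.46% of the counts of a library. Astrocyte markers, such as the glutamate transporters Slc1a2 and Slc1a3, were not absent. They took 4.55% and 4.50% of the counts with miR124sp, 3.60% and 3.85% with miR125sp, 1.58% and 1.66% with miR292sp, and 6.48% and 6.45% in sham. RNA of astrocyte marker genes was therefore present in the RIP, and its share differed between the groups. Each share is a sum over 13 3′UTRs, and how much of it single 3′UTRs carried was not examined. Oligodendrocyte markers did not follow this order, with 0.105% and 0.144% with miR124sp, 0.133% and 0.131% with miR125sp, 0.106% and 0.108% with miR292sp, and 0.134% and 0.129% in sham.

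The 346 3′UTRs had a median ratio of miR292sp to sham of 5.25 (quartiles 4.52 and 7.35, highest 19.7), against a median of 0.876 over all 8203. The ratio lay between 4 and 5 in 147 of them, between 5 and 6 in 74, between 6 and 8 in 60, between 8 and 12 in 43 and above 12 in 22. In 201 of the 346 (58.1%), each miR292sp library alone stood more than 4-fold above each sham library. The same held for 2.45% of all 3′UTRs, and the rule places every such 3′UTR among the 346. Just inside the limit were Dusp1 (4.03), Med26 (4.01) and Atf7 (4.01), and just outside it Rhoq (3.9994), Apba1 (3.9969) and Gm5806 (3.9966). These values do not separate, so the limit cuts a continuous range. The counts behind the ratios were uneven, with a median of 836 and 813.5 in the miR292sp libraries and of 73 and 67.5 in the sham libraries, and a low of 10 counts in sham.

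Together the 346 3′UTRs took 6.69% and 5.85% of the counts of the miR124sp libraries, 8.12% and 7.42% with miR125sp, 11.0% and 10.7% with miR292sp, and 1.83% and 1.88% in sham. The widest of the 95% Wilson intervals of these shares spanned 0.058 percentage points, and such intervals cover counting error only. All 3 GFP-AGO2 groups were far above sham, and the miR124sp libraries lay lowest among them.

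**Figure D1:**
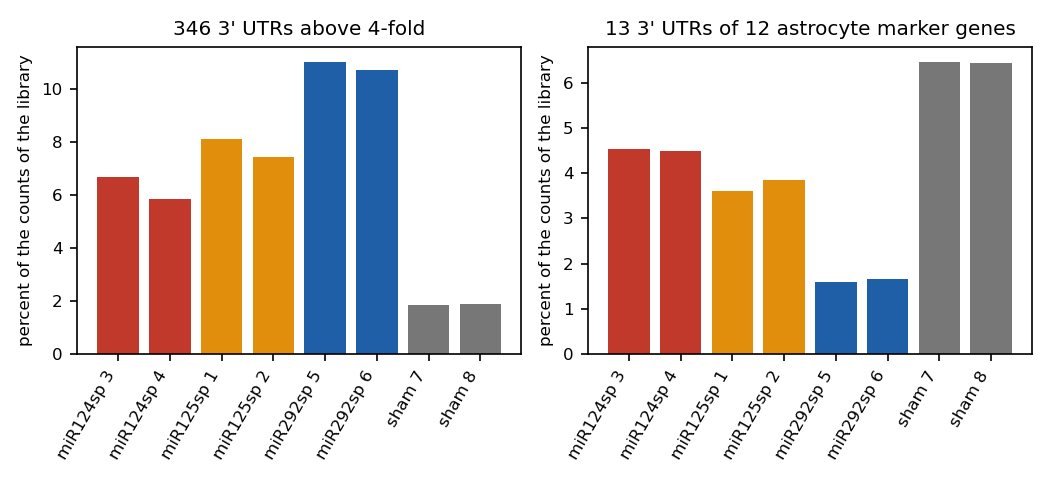
Percent of the counts of each RIP library (bars, 1 library each) that fell in the 346 3′UTRs above 4-fold (left) and in 13 3′UTRs of 12 astrocyte marker genes (right). The 346 3′UTRs took 10.7% to 11.0% with miR292sp and 1.83% to 1.88% in sham, and the astrocyte markers ran in the opposite order, 1.58% to 1.66% against 6.45% to 6.48%.

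The highest ratio belonged to Frat2, which binds the kinase GSK3 and favours Wnt signalling. Its 3′UTR of 1238 bases (chr19:41920468-41921705, minus strand) had 88.2 and 77.4 CPM with miR124sp, 191 and 176 CPM with miR125sp, 254 and 257 CPM with miR292sp, and 8.53 and 17.4 CPM in sham. The 4 groups did not overlap, and the ratio of miR292sp to sham was 19.7, resting on 1287 and 1284 counts against 25 and 42. Ddit4, a stress-induced inhibitor of mTORC1, followed with 51.9 and 69.3 CPM with miR124sp, 77.2 and 114 CPM with miR125sp, 115 and 151 CPM with miR292sp, and 5.80 and 8.27 CPM in sham, a ratio of 18.9. Its 861-base 3′UTR lies at chr10:59412423-59413283 on the minus strand. The groups of Ddit4 follow each other in this order without overlap, although the higher miR125sp library lies just below the lower one with miR292sp.

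Sec24d, a coat protein of vesicles that leave the endoplasmic reticulum, had a ratio of 17.1, but its 674-base 3′UTR overlaps exons of Mettl14 on the opposite strand, and the sources used here do not say whether counting was by strand. Zswim5 (15.9) is a zinc finger protein of the SWIM type. Its sham libraries were far apart, with 405 and 366 CPM with miR124sp, 477 and 454 CPM with miR125sp, 704 and 743 CPM with miR292sp, and 20.8 and 70.3 CPM in sham. Dhx8, an RNA helicase of the spliceosome, reached 15.8 with a 3′UTR of only 499 bases. Slc44a5, of the choline transporter-like family, combined a ratio of 14.6 with 1596 and 1484 CPM with miR292sp against 116 and 95.9 CPM in sham. The remaining 3′UTRs among the 20 highest were those of Zbtb34, Scrt2, Itgb1, Sema7a, Kdm6b, Kcnj2, Slc25a1, Gnai3, Taf13, Irs1, Tmem28, 4930572J05Rik, Insm1 and Fkbp1b, with ratios of 12.3 to 14.8. In each of the 20 both miR292sp libraries lay above both sham libraries, as they did in 32.3% of all 3′UTRs, and the rule makes this likely. The 3′UTR of Irs1 overlaps the gene Gm9747.

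**Figure D2:**
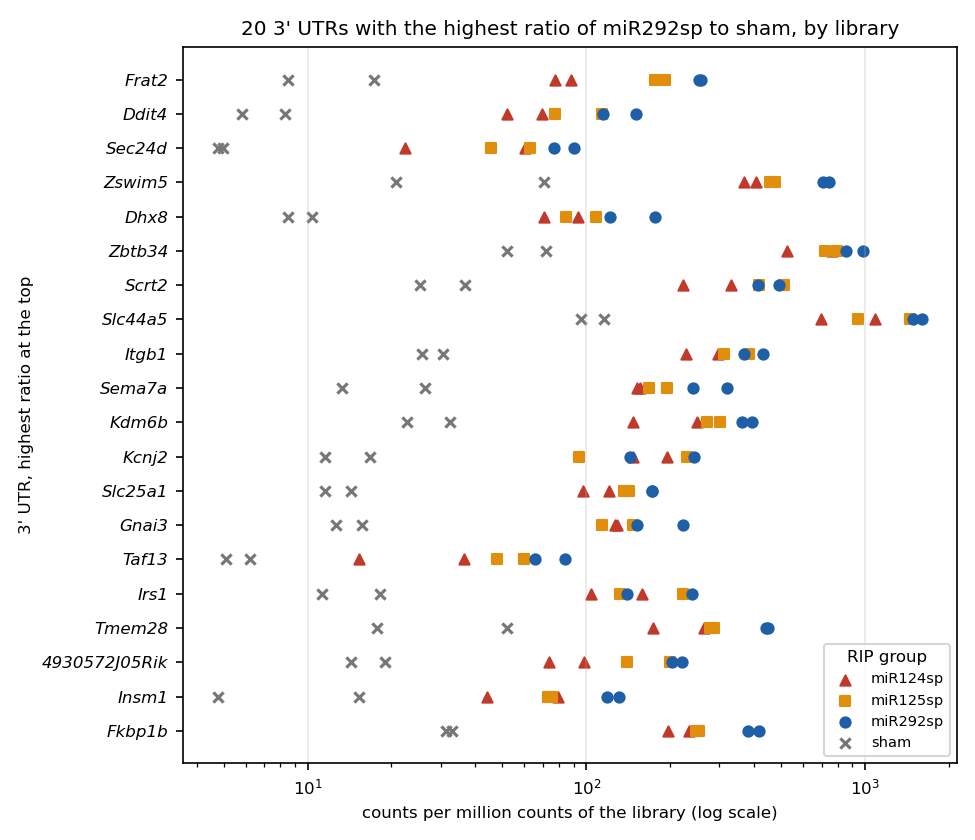
CPM (log axis) of the 20 3′UTRs with the highest ratio of miR292sp to sham, 1 point per RIP library. In all 20 the miR124sp, miR125sp and miR292sp libraries lie to the right of the sham libraries, and for Frat2 the 4 groups are separate, from 77.4 to 88.2 CPM with miR124sp to 254 to 257 CPM with miR292sp.

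The functions of the genes were described with lists of gene symbols, each count being set beside the 4.22% of all 3′UTRs that were above 4-fold. No list was tested, since the 3′UTRs were chosen by their values. Signalling from growth factors and insulin was represented by 7 of 54 3′UTRs (13.0%), among them Ddit4, the insulin receptor substrate Irs1, the transcription factor Foxo3, which this pathway keeps out of the nucleus, the receptor Igf2r, the kinase Mknk2 and Rragd, a GTPase upstream of mTORC1. Foxo3 had 296 and 288 CPM with miR124sp, 383 and 349 CPM with miR125sp, 586 and 520 CPM with miR292sp, and 40.9 and 69.5 CPM in sham. All 4 groups of Foxo3 were again separate, in the order seen for Frat2. Of the Wnt and Frat genes, 4 of 39 3′UTRs (10.3%) were above 4-fold, namely Frat2, the ligand Wnt9a (7.66), the co-receptor Lrp6 (4.43) and Ctnnb1, which encodes β-catenin and whose 3′UTR overlaps Ulk4.

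Immediate early genes, which neurons transcribe within minutes of stimulation, contributed 5 of 30 3′UTRs (16.7%). They were Btg2 (12.1), Fos (6.35), Ptgs2 (4.75), Ier2 (4.29) and Dusp1 (4.03). Btg2 also belongs with the genes of deadenylation and mRNA decay, of which 4 of 24 (16.7%) were above 4-fold. The others were the RNA-binding protein Mex3b (9.62), the decapping enzyme Dcp2 (4.70) and Cpeb2, a regulator of cytoplasmic polyadenylation. Btg2, which recruits the deadenylase complex, had 144 and 114 CPM with miR124sp, 156 and 144 CPM with miR125sp, 264 and 254 CPM with miR292sp, and 20.1 and 22.7 CPM in sham. Here the miR124sp and miR125sp libraries met at 144 CPM. Both were well below miR292sp and well above sham. Eif2c1, which encodes AGO1, was the only gene of the miRNA pathway list above 4-fold (1 of 11 3′UTRs, ratio 4.75).

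Axon guidance genes gave 10 of 59 3′UTRs (16.9%) from 9 genes. These were the semaphorins Sema7a and Sema4f, Nrp2 and Plxnb2, which are receptors of the semaphorin family, and the ephrins Efna2 and Efna3. The others were the ephrin receptor Epha7 with 2 annotated 3′UTRs, the netrin receptor Unc5a, and Ssh1, a phosphatase that activates the actin-severing protein cofilin. Sema7a had 156 and 152 CPM with miR124sp, 168 and 194 CPM with miR125sp, 240 and 320 CPM with miR292sp, and 13.3 and 26.5 CPM in sham. Its ratio was 14.1, with no overlap between miR292sp and any other group. Itgb1, an integrin subunit through which semaphorin 7A signals, had a ratio of 14.2.

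Lists of regulators of transcription and chromatin differed among themselves. Of 5 measured 3′UTRs of the neuronal zinc finger repressors Scrt, Insm and Hic, 3 were above 4-fold (60%): Scrt2 (14.6), Insm1 (12.4) and Hic2 (10.3). With only 5 measured, nothing is read from this share. Scrt2 differed from most of the 346, since miR125sp left it at 512 and 417 CPM, against 491 and 414 CPM with miR292sp. It had 331 and 222 CPM with miR124sp and 25.2 and 36.8 CPM in sham. Histone lysine methyltransferases and demethylases gave 4 of 35 (11.4%), with Kdm6b, which removes methyl groups from lysine 27 of histone H3 (13.7), Jarid2, an accessory subunit of the complex that places them (8.49), Prdm2 and Kdm5b. The list of chromatin readers, remodellers and DNA modification stood near the background, with 4 of 63 (6.35%) and a median ratio of 0.872. Its member Tet3, which oxidises 5-methylcytosine, had a ratio of 9.97 and 933 and 820 CPM with miR292sp against 97.2 and 78.6 CPM in sham. Transcription factors of the bHLH, Mef2, Sox and Pou families gave 5 of 46 (10.9%), led by Mycn (9.67), and the forkhead and nuclear factor families 4 of 35 (11.4%), with Foxo3, Nfatc3, Nfix and Rara. The large Zfp family was also near the background, with 9 of 196 (4.59%).

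Genes of basic cell functions were rare. None of 67 3′UTRs of oxidative phosphorylation genes, 47 of cytosolic ribosomal proteins, 31 of proteasome subunits and 37 of Rab GTPases was above 4-fold, and their median ratios were 0.543, 0.748, 0.554 and 0.815. Mitochondrial ribosomal proteins gave 1 of 53, Mrpl44. Lists of synaptic genes were counted in the same way. None of 36 3′UTRs of glutamate and GABA receptors exceeded 4-fold. Synaptic vesicle release genes stood near the background of 4.22%, with 3 of 62 (4.84%), Sh3gl1, the active zone protein Bsn (4.27) and the calcium sensor Syt2 (4.09). Potassium channels gave 3 of 51 (5.88%), of which Kcnj2, an inward rectifier, had a ratio of 13.7. Its 144 CPM in 1 miR292sp library lay within the range of the sponge libraries, which was 93.9 to 229 CPM. Ubiquitin ligase families gave 12 of 163 (7.36%) and solute carriers 8 of 157 (5.10%).

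The marker lists were small, as were several lists above and the list of miR-125 targets below. Nothing is read from how the shares of such small lists stand to the background of 4.22%. No 3′UTR of the astrocyte (13 measured), microglia (3) or endothelial and choroid (3) markers was above 4-fold, nor was any of the 23 of neuron markers, whose median ratio was 1.17. Of oligodendrocyte markers 1 of 16 3′UTRs (6.25%) was above the limit, a 3935-base 3′UTR of Mbp with a ratio of 6.14, while another 3′UTR of Mbp had 0.360. Genes described elsewhere as miR-125 targets gave 3 of 14 (21.4%), namely the cell death regulators Bbc3 (7.89) and Mcl1 (5.36) and the kinase Mknk2 (6.85), and genes described as miR-124 targets gave 1 of 28 (3.57%), Itgb1.

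For 28 of the 345 genes more than 1 annotated 3′UTR passed the count minimum, 60 in all, of which 29 were above 4-fold. Epha7 was the only gene with 2 of them above the limit (4.28 and 4.04). In the other 27 genes 1 3′UTR exceeded 4-fold and the others did not. Iscu, a scaffold protein for iron-sulphur clusters, had a ratio of 7.69 in a 3′UTR of 370 bases and of 0.450 in one of 740 bases. The imprinted zinc finger gene Peg3 had 5.81 and 0.284, Jarid2 8.49 and 0.787, Nfatc3 9.64 and 0.962 (its 3′UTR overlaps Esrp2), Socs2 5.17 and 0.471 and Usf2 5.22 and 1.09. In the bromodomain gene Brwd1 the 3′UTR above the limit had 4.63 and the other 4 had 0.232 to 1.17. For Nrp2 the gap was small, with 6.96 and 3.94. Each of these genes was taken for a 3′UTR above the limit, and 4.22% of all 3′UTRs exceed it, so nothing is read from how seldom another one did. Overlap with an exon of another gene was found for 33 of 339 of the 3′UTRs with a position (9.73%) and for 839 of 8096 of all (10.4%).

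Very short 3′UTRs were rare among the 346. Their median counted length was 1561 bases (quartiles 952 and 2737), against 1312 bases over all 3′UTRs that passed (quartiles 560 and 2400). When all 3′UTRs were ordered by length and cut into 5 classes of equal size, 19 of 1645 in the shortest class (2 to 438 bases) were above 4-fold (1.16%), whereas the other classes held 4.46%, 5.98%, 4.20% and 5.30% in order of length. There was no steady increase beyond the shortest class. The longest were those of the decapping enzyme Dcp2 (7240 bases), Sestd1 (6791), the Notch pathway ubiquitin ligase Mib1 (6453), Rnf165 (6219) and Usp31 (6163). Short ones included Mdga1 (117 bases, last block only), Tmem179b (151), Gm10116 (162) and Apbb3 (279).

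The level of the mRNAs in hippocampus was taken from the 6 mice with GFP alone, as CPM per kilobase of transcript. The genes of the 346 3′UTRs had a median level of 11.9 (quartiles 5.23 and 23.1, 337 3′UTRs matched), against 13.7 over all 3′UTRs that passed (quartiles 3.11 and 35.7). Genes with several RefSeq transcripts had unreliable levels, and Polr2d, Ryk, Larp4, Nrp2 and Zfp568 were among those listed at 0. Among genes with 1 transcript the medians were 15.0 (273 3′UTRs) and 20.6 (5939 3′UTRs). The share above 4-fold was 5.30%, 6.64% and 5.40% in the 3 lower of 5 such classes of the level, 3.78% in the next and 1.85% in the highest (22 of 1187, levels above 56.9). A high ratio was thus seldom found among the most abundant mRNAs. Exceptions were the sodium pump subunit Atp1b1 (1143), the dendritic protein Ddn (928), Pld3 (337) and the ferritin light chain Ftl1 (325). Frat2, with the highest ratio, had a level of only 7.10 ± 1.19 (SD, n = 6), and Ddit4 had 36.9 ± 1.93 (SD, n = 6).

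**Figure D3:**
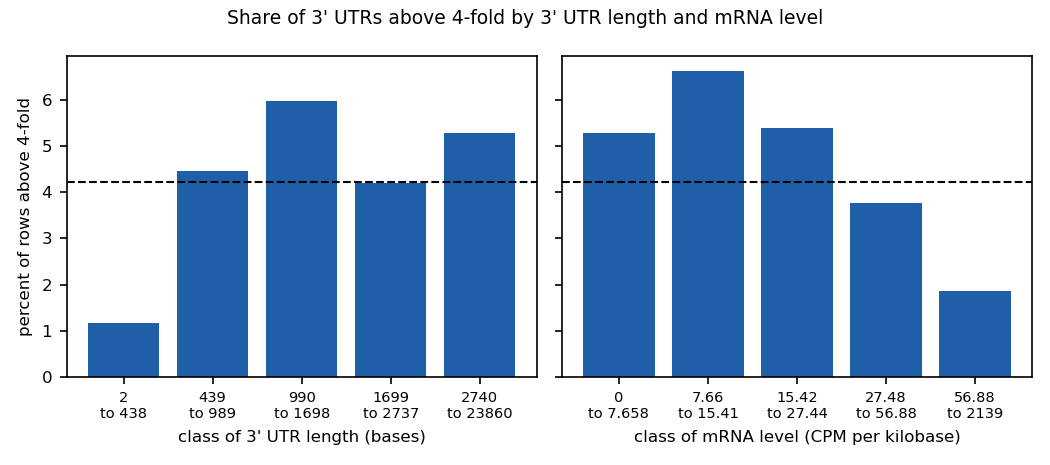
Percent of 3′UTRs above 4-fold in each of 5 classes of equal size by the counted 3′UTR length (left, bases) and by the mRNA level in GFP mice (right, CPM per kilobase, genes with 1 transcript). The dashed line marks the 4.22% of all 3′UTRs, and the bars are lowest for the shortest 3′UTRs (1.16%) and for the highest levels (1.85%).

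Matches to the seeds of 10 miRNAs were counted in the 339 of the 346 3′UTRs, and the 7868 of all 8203, for which the annotation gave the sequence. At least 1 match was present in 295 of the 339 (87.0%), against 69.3% of all. miR-29a stood out, with a match in 108 (31.9%) against 16.3% of all, or 18.3% when the 7868 were weighted to the same lengths. let-7a had a match in 83 (24.5%) against 11.4% of all and 12.8% after weighting. In both, the share was higher in each of 4 length classes. Among 3′UTRs up to 609 bases, for example, a miR-29a match was found in 6 of 45 (13.3%) against 4.57% of all, and among those above 2440 bases in 46.5% against 33.3%.

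miR-125b matches were present in 80 (23.6%) against 16.1% of all and 18.1% after weighting, and miR-138 matches in 23.6% against 17.3% after weighting. The difference was smaller for miR-128 (30.1% and 26.8% after weighting), miR-30a (23.3% and 19.6%), miR-9 (20.9% and 17.2%) and miR-26a (15.6% and 14.0%). For miR-181a (21.2% and 22.7%) and miR-21a (8.85% and 9.59%) the share was slightly below that of all 3′UTRs of the same length. Several 3′UTRs held the same match many times. Tet3 had 8 for miR-29a, Hic2 had 4 for let-7a, and Hif1an, an oxygen-dependent inhibitor of HIF1, had 4 for miR-125b and 3 for let-7a. A match is a string of letters and not a measured site. Matches for miR-124 and miR-292 were not analysed here.

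**Figure D4:**
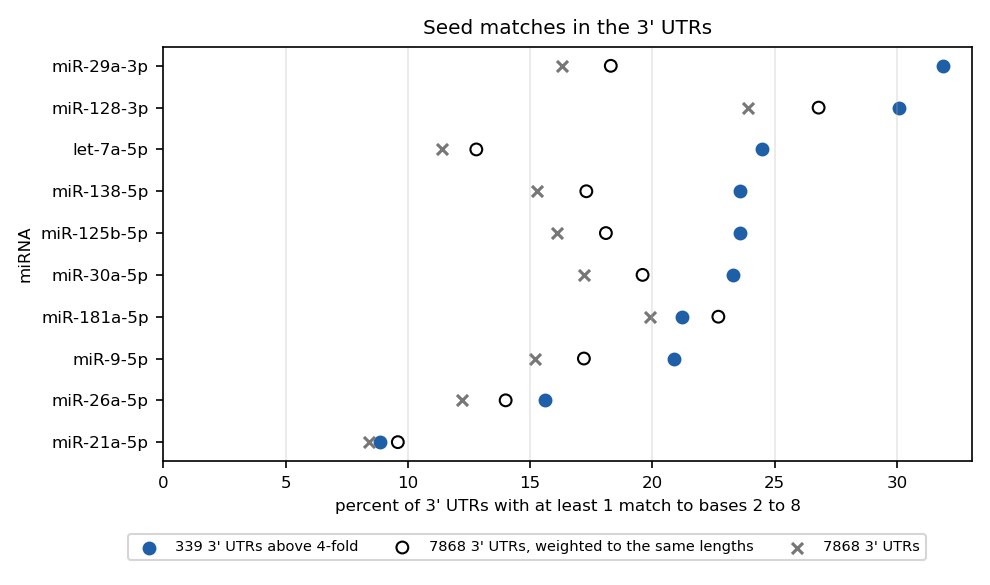
Percent of 3′UTRs with at least 1 match to bases 2 to 8 of each miRNA, in 339 3′UTRs above 4-fold (filled circles), in all 7868 with sequence weighted to the same lengths (open circles) and unweighted (crosses). The gap to the open circles is widest for miR-29a (31.9% against 18.3%) and let-7a (24.5% against 12.8%) and absent for miR-181a and miR-21a.

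The question put to the sponge libraries was how much of the GFP-AGO2 recovery was kept when a sponge for a neuronal miRNA replaced the control sponge. With miR124sp the 346 3′UTRs had a median of 0.562 of their miR292sp level (quartiles 0.501 and 0.635), against 1.02 over all 3′UTRs. In 315 of them (91.0%) both miR124sp libraries lay below both miR292sp libraries, against 28.9% of all 3′UTRs. With miR125sp the median was 0.698 (quartiles 0.618 and 0.800), against 1.03 over all, and both libraries lay below both miR292sp libraries in 281 (81.2%) against 27.0%. These shares are no independent evidence, since a 3′UTR picked for a high value with miR292sp will tend to be lower elsewhere, and both comparisons used the same miR292sp libraries. The share of astrocyte marker counts given above moved in the opposite direction in the same libraries, and its part in these ratios was not tested. The ratios depend on the scaling. When counts were scaled to 3′UTRs with a ratio of miR292sp to sham close to that of Gapdh, the medians were 0.282 with miR124sp and 0.401 with miR125sp, and the medians of all 3′UTRs 0.511 and 0.593. Those reference 3′UTRs were picked by the same contrast as the 346. They took 0.697% and 0.745% of the counts with miR292sp, 1.21% to 1.45% with the other sponges, and 2.01% and 1.92% in sham. Compared with column sums, this scaling therefore raises miR292sp against every other group.

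Relative to sham the 346 stayed high. The median ratio was 3.17 with miR124sp and 3.95 with miR125sp, 94 and 164 3′UTRs were still above 4-fold, and 91 were so with both sponges. With the scaling to 3′UTRs close to Gapdh the medians over sham were 4.32 with miR124sp, 6.19 with miR125sp and 14.3 with miR292sp, against 1.29, 1.47 and 2.39 over all 3′UTRs. Both libraries lay above both sham libraries in 345 with miR124sp and in 343 with miR125sp, against 23.3% and 26.7% of all 3′UTRs, while over all 3′UTRs both were below sham in 25.2% with miR124sp and in 30.3% with miR125sp. The comparisons with sham share the libraries that chose the 3′UTRs, so these counts are in part fixed by the choice.

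The lowest ratio to miR292sp belonged to Fos with both sponges, 0.178 with miR124sp and 0.222 with miR125sp. Fos, which pairs with Jun proteins to form AP-1, had 21.3 and 11.9 CPM with miR124sp, 21.8 and 19.7 CPM with miR125sp, 112 and 74.4 CPM with miR292sp, and 5.80 and 23.6 CPM in sham. With either sponge its values lay within the range of the sham libraries. Ier2 was also lower with the sponges than with miR292sp but stayed above sham, with 22.7 and 24.8 CPM with miR124sp, 34.0 and 31.3 CPM with miR125sp, 57.6 and 95.4 CPM with miR292sp, and 15.0 and 20.7 CPM in sham. Dusp1, a phosphatase of MAP kinases, had 20.8 and 19.7 CPM with miR124sp, 26.5 and 27.1 CPM with miR125sp, 50.1 and 68.2 CPM with miR292sp, and 13.6 and 15.7 CPM in sham. All 3 are immediate early genes, and their ratios to miR292sp were 0.310 for Ier2 and 0.342 for Dusp1 with miR124sp, and 0.427 and 0.453 with miR125sp. Other low ratios with miR124sp were found for Sdf2l1 (0.303), Sec11a (0.307), Frat2 (0.324), Igf2r (0.343), Taf13 (0.345), Dlk1 (0.359) and C1qtnf6 (0.378).

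Low ratios with miR125sp were those of Cdh2, which encodes N-cadherin (0.335), B3gnt1 (0.365), the β1-adrenergic receptor Adrb1 (0.371), Lemd3 (0.381) and Pdhx (0.387). Cdh2 was a 3′UTR of few counts, with 7.45 and 8.74 CPM with miR125sp (25 and 31 counts), against 19.1 and 29.3 CPM with miR292sp (97 and 146 counts). At the other end, the transcription factor Klf2 had 76.9 and 52.1 CPM with miR125sp against 45.5 and 45.7 CPM with miR292sp, a ratio of 1.41, and Fam83h had 1.30. With miR124sp the mean lay below that of miR292sp in 344 of the 346 (99.4%), against 48.6% of all 3′UTRs, which is in part fixed by the choice. The other 2 were Fam83h (1.15) and 1810048J11Rik (1.05). The ratio with miR125sp was about the same in 3′UTRs with a miR-125b match (median 0.719) as in those without one (0.690).

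The 2 sponges can be set against each other in libraries that entered the choice only through the minimum of 10 counts, and not through the ratio. In the edgeR quasi-likelihood test of miR124sp against miR125sp, none of the 346 passed an adjusted p of 0.05 in either direction, where 0% of all 8203 were called higher and 0.0122% lower, the single 3′UTR of Ttr, a choroid plexus marker that is not among the 346. At an unadjusted p under 0.05, 1 of the 346 was higher and 50 were lower, against 215 and 215 of all, and DESeq2 called none of the 346 either. The median log2 ratio was −0.29 (quartiles −0.45 and −0.10), against 0.01 over all 3′UTRs, and 49 of the 346 (14.2%) lay above 0, against 51.0% of all. Both miR124sp libraries were below both miR125sp libraries in 174 (50.3%), against 18.6% of all, and above both in 11 (3.18%), against 16.1%. The 346 thus lay lower with miR124sp than with miR125sp as a group, by an amount that 2 libraries a side did not resolve for any single 3′UTR. In simulated counts this test recovered 92% of 4-fold changes but only 10% of 2-fold changes. The simulation gave every 3′UTR the same spread and made all but the changed ones equal between the groups. These data differ in both respects, so the rates are only a rough guide. The astrocyte share was also higher in the miR124sp libraries than in the miR125sp libraries, and its part was not tested.

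Frat2 had the lowest log2 ratio of miR124sp to miR125sp, −1.12 (SE 0.26, edgeR adjusted p = 0.728), with no overlap between its libraries. Without the count minimum it was the only one of the 346 that passed. C1qtnf6 (−1.11), Zfp568 (−1.10), Dusp23 (−1.08) and Igdcc3 (−1.05) followed, none of them past the threshold. For Itgb1 the log2 ratio was −0.38 (SE 0.22, adjusted p = 0.921). Without each library in turn the median over the 346 ranged from −0.43 to −0.17.

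The mRNA mice played no part in the choice of the 3′UTRs, so the mRNA comparisons are tests. With miR124sp the mRNAs of the 346 3′UTRs more often rose than fell relative to GFP. Of 306 tested genes, 73 (23.9%) were higher and 12 (3.92%) lower by edgeR's quasi-likelihood test at an adjusted p under 0.05, and 221 did not pass. Over all 12971 genes tested, 12.6% were higher and 10.7% lower. The median log2 change of the 306 was 0.09 (quartiles −0.08 and 0.29), against −0.01 over all genes, so most changes were small. The share of higher calls decreased with the ratio of miR292sp to sham in the RIP, from 23.9% above 4-fold through 20.3% between 2 and 4, 17.8% between 1 and 2 and 15.0% between 0.5 and 1 to 9.74% at or below 0.5, and the share of lower calls increased along the same classes, 3.92%, 5.79%, 10.5%, 13.1% and 15.7%. The number of calls rested on single mice. Without GFP mouse 15 there were 24 higher calls, without miR124sp mouse 2 there were 29 and without miR124sp mouse 14 there were 40, while lower calls ranged from 3 without miR124sp mouse 2 to 29 without miR124sp mouse 9. Calls over all genes in these fits were not counted, so nothing particular to the 346 is read from them.

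**Figure D5:**
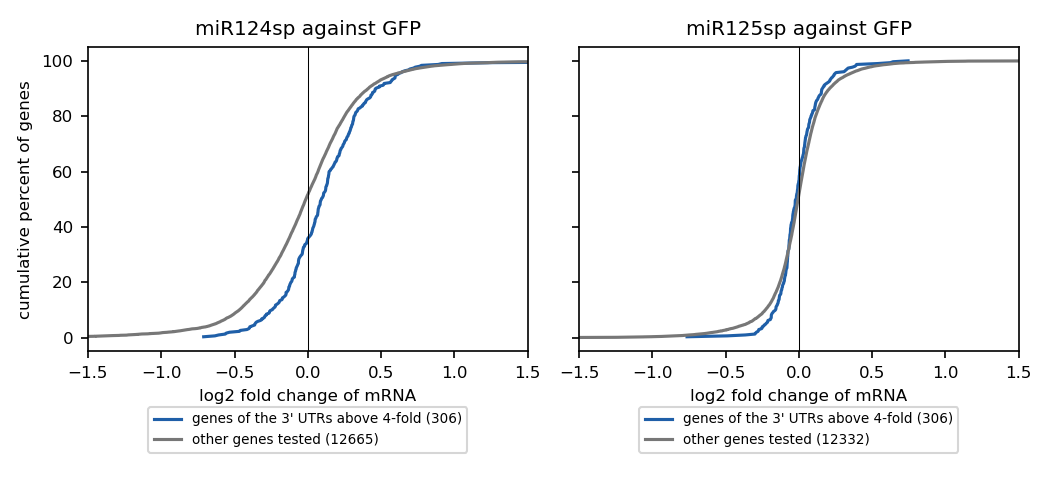
Cumulative percent of genes by log2 fold change of mRNA against GFP, for the 306 tested genes of the 346 3′UTRs (blue) and the other genes tested (grey), with miR124sp (left) and miR125sp (right), 3 mice a group. The blue line lies to the right of the grey line with miR124sp (median 0.09 against −0.01 over all genes) and on it with miR125sp. The axis leaves out changes beyond 1.5, which are 2 of the 306 genes and 97 others with miR124sp and 11 others with miR125sp.

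The largest increases were in Syt2 and Scn4b, both known from fast-firing neurons. Syt2, a calcium sensor of synaptic vesicles, had 21.6, 20.0 and 7.96 CPM per kilobase with miR124sp, against 2.88, 2.41 and 3.24 with GFP (log2 change 2.59, SE 0.33, edgeR adjusted p = 0.00368). Scn4b, an auxiliary sodium channel subunit, had 33.0, 27.9 and 17.1 with miR124sp, against 5.51, 6.23 and 5.88 with GFP (log2 change 2.19, SE 0.21, adjusted p = 0.00368). In both genes the third miR124sp mouse was the lowest of the 3 and still above all GFP mice. The potassium channels Kcnk3 and Kcnc4 rose by 0.89 and 0.70 on the log2 scale, and Kcnj2 was the one of 3 that did not pass. Over all potassium channel genes tested, 29 of 70 were higher and 1 lower.

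Sema7a, with the tenth highest ratio in the RIP, rose to 84.9, 79.0 and 65.5 CPM per kilobase with miR124sp, against 42.9, 44.1 and 51.9 with GFP (log2 change 0.76, SE 0.12, edgeR adjusted p = 0.0043). It was the only one of 7 tested axon guidance genes of the 346 that passed, while 17 of 72 such genes in all were higher and 2 lower. The aryl hydrocarbon receptor Ahr, a ligand-activated transcription factor, had 3.93, 4.51 and 4.17 with miR124sp, against 2.65, 2.50 and 2.70 with GFP (log2 change 0.72, SE 0.09, adjusted p = 0.00368). Of the insulin and FoxO genes, Foxo3 (log2 change 0.56), Irs1 (0.37) and Igf2r (0.32) rose, and Ddit4, Mknk2 and Rragd did not pass. Over that whole insulin and FoxO list 16 of 56 genes were higher and 1 lower. Also higher, with the log2 change in parentheses, were Rassf3 (0.92), Peg3 (0.60), Lingo3 (0.60), Zfp536 (0.59), Klhdc5 (0.49), the Wnt genes Wnt9a (0.65) and Lrp6 (0.24), the helicase gene Dhx8 (0.40) and Dcp2 (0.40). The GFP mice of the miR-125 experiment averaged higher than those of the miR-124 experiment in all but 3 of the 73 higher genes. Klhdc5, for example, averaged 9.46 CPM per kilobase with miR124sp, against 6.93 in its own GFP mice, and the GFP mice of the miR-125 experiment averaged 9.56. In 24 of the 73 higher genes the mean of those other GFP mice was at or above that of the miR124sp mice. The same was not counted over all genes called, and its part in the calls was not tested.

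Of the 5 immediate early genes, Ier2, Fos and Dusp1 rose, and these 3 also had low ratios to miR292sp in the RIP. Other genes with low ratios there went both ways. Igf2r rose, whereas Sec11a averaged 23.0 CPM per kilobase with miR124sp against 29.3 with GFP, and Taf13 25.9 against 31.1. Fos had 5.46, 8.45 and 6.07 CPM per kilobase with miR124sp, against 3.98, 4.39 and 4.38 with GFP (log2 change 0.69, SE 0.17, edgeR adjusted p = 0.018). The GFP mice of the miR-125 experiment had 16.8, 17.4 and 12.7, so the 2 sets of GFP mice differed more from each other than the sponge differed from its own. Over all immediate early genes tested, 16 of 40 were higher and none lower.

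Lower mRNA was found for the near-identical genes Dynlt1a and Dynlt1b, whose reads cannot be told apart with certainty (log2 changes −0.47 and −0.53), for Bhlhe22 (−0.56), a transcription factor of forebrain neurons, for the GTPase Rap1b (−0.36) and for Ftl1 (−0.30), whose call was lost in 4 alternatives with an adjusted p of up to 0.123. Rap1b averaged 49.5 CPM per kilobase with miR124sp, against 65.2 in its own GFP mice, and the GFP mice of the miR-125 experiment averaged 51.6. In 4 of the 12 lower genes, Ftl1, Fam174a, Dynlt1a and Dynlt1b, the mean of those other GFP mice was at or below that of the miR124sp mice. In all but 2 of the 12 it was below that of the GFP mice of the miR-124 experiment. The genes with the highest RIP ratios did not stand out, with log2 changes of −0.03 for Frat2, −0.10 for Ddit4 and 0.04 for Itgb1, none past the threshold.

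Cell type markers moved in the same mice. With miR124sp, 10 of 14 oligodendrocyte markers were higher (median log2 change 0.55), and they took 0.179%, 0.152% and 0.141% of the counts with miR124sp, against 0.115%, 0.113% and 0.105% with GFP. Of 12 astrocyte markers 6 were lower, with shares of 0.746%, 0.745% and 0.723% with miR124sp against 0.913%, 1.04% and 0.867% with GFP, and 6 of 9 microglia markers were lower. Of 21 neuron markers 6 were higher and 2 lower. In such tissue fewer cells of a type and less RNA per cell cannot be told apart, and the part of these shifts in the changes of the 306 genes was not tested. Cytosolic ribosomal protein genes, of which none was among the 346, were lower in 69 of 76.

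With miR125sp almost no mRNA of the 346 3′UTRs passed. Of 306 tested, 1 was higher and 1 lower by edgeR, where 0.0554% and 0.15% of all 12638 genes were called, 7 and 19 genes. At an unadjusted edgeR p under 0.05 the numbers were 24 and 28 of the 306, against 808 and 851 of all 12638. The median log2 change was −0.02 against −0.01 over all genes. DESeq2 called 5 of the 346 higher and 8 lower, and its calls over all genes were not counted, so nothing is read from them. The lower gene was Sipa1l2, a regulator of Rap GTPases, with 17.0, 17.3 and 17.0 CPM per kilobase with miR125sp against 21.2, 20.3 and 22.0 with GFP (log2 change −0.30, SE 0.04, edgeR adjusted p = 0.0329). This call was lost in 5 of the 6 fits that left out a mouse, with an adjusted p of up to 0.153. Among those not passing, large values were found for Socs2 (0.64) and Bdh1 (0.63) and for Tjp1 (−0.76) and Sox11 (−0.49, adjusted p = 0.0549). Tjp1 was hardly detected, with 0.0476, 0.0525 and 0.119 CPM per kilobase with miR125sp against 0.159, 0.185 and 0.0940 with GFP, and its groups overlapped.

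The difference between the 2 mRNA effects was tested over the 12 mice. Of 308 genes of the 346 3′UTRs tested, 45 (14.6%) had a higher effect with miR124sp than with miR125sp and 8 (2.60%) a lower one, against 7.42% and 7.06% of all 13268 genes. Among the higher genes the differences were largest for Syt2 (log2 2.20), Scn4b (1.98) and Kcnk3 (0.95), and Ddn was among the lower genes (−0.63, SE 0.19, edgeR adjusted p = 0.0352). Leaving out each mouse in turn gave 22 to 65 higher and 3 to 17 lower, again without a count over all genes. Fos (0.74) and Foxo3 (0.44) also had the higher effect with miR124sp, whereas for Ier2 (0.57, adjusted p = 0.209) and Dusp1 (0.56, adjusted p = 0.142) the effects of the sponges were not shown to differ.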

How the data were processed

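The authors deposited raw counts per annotated 3′UTR for the RIP libraries and raw counts per RefSeq transcript for the mRNA libraries. Reads were 50-base single-end from poly-A enriched RNA. The study's methods name mm9, whereas the submitters' processing notes name mm10, STAR and edgeR. The sources used here do not name the counting program. No read was realigned.

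The 8 RIP and 12 mRNA libraries were grouped by their labels. CPM used column sums. mRNA counts were summed per gene symbol (98.7% of transcripts had one, and those without held 0.849% of counts). Tests were edgeR 4.0.16 quasi-likelihood fits in R 4.3.3 with TMM, on rows with at least 10 counts in each RIP library or on genes kept by filterByExpr, with Benjamini-Hochberg adjustment over all of them. The RIP fit shared its spread over all 4 groups of 2. RIP libraries were pools of 2 hippocampi, so p-values measure the spread between pools. The code was tested on simulated data. 3′UTR positions, lengths and sequences came from NCBIM37 with GENCODE M1 (the length matched for 90.8% of rows), and miRNAs from RefSeq (GRCm38.p6).

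The 3′UTRs and gene lists were chosen with earlier results of these data known. Named genes were the 20 highest ratios, the neighbours of the limit, up to 10 calls each way per comparison by adjusted p (the largest changes where under 5 were called), the extremes of sponge ratio, length and level, up to 4 genes per list, and genes with several 3′UTRs. A few others from the same tables were named after their values were seen. Alternatives were DESeq2 1.42.0, other scalings (one on 3′UTRs near Gapdh in ratio, after the study's methods), filters and limits, and leaving out each replicate. Some genes that the rule selects are not reported here.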

Additional observations from a re-analysis of the deposited data

Results flagged for a closer look

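For 17 genes of the 346 3′UTRs named by the rule, the mRNA effects of the 2 sponges differed from each other (edgeR interaction over 12 mice, adjusted p under 0.05). The effect of miR124sp was the higher one, as a difference of log2 changes, for Syt2 (2.20), Scn4b (1.98), Ahr (0.72), Zfp536 (0.71), Plekhm3 (0.57), Nfatc3 (0.56), Klhdc5 (0.51), Ankrd52 (0.44), Dhx8 (0.44) and Lrp6 (0.35). It was the lower one for Ddn (−0.63), Ankrd43 (−0.54), Fam174a (−0.45), Tbc1d16 (−0.43), Dynlt1b (−0.41), Rap1b (−0.39) and Dynlt1a (−0.35). The lower calls of Dynlt1a, Ankrd43, Ddn, Dynlt1b and Tbc1d16 were lost in 11, 9, 7, 6 and 6 alternatives. The sponges were injected in separate experiments, each with its own GFP mice, so that the sponge and the experiment cannot be told apart in this difference.

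A further 296 3′UTRs had at least 10 counts in both miR292sp libraries and a ratio above 4, but were left out because another library held under 10 counts, in 162 of them a sham library alone.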

How the results depend on the processing

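The number of 3′UTRs above the limit followed the scaling and the minimum. It was 2230 when counts were scaled to 3′UTRs with a ratio close to that of Gapdh, 560 with at least 1 count in each library, 636 with a limit of 3-fold and 199 with a limit of 5-fold, against 346. With TMM it was 396, with DESeq2 size factors 414 and with at least 30 counts 245. Leaving out each miR292sp and sham library gave 338 to 472. In miR124sp against miR125sp in the RIP, 1 of the 346, Frat2, was called lower without the count minimum, and leaving out each library gave 0 to 0 higher and 0 to 0 lower. 1810048J11Rik ranged there from −0.13 without replicate 4, a change of direction, to 1.29 without replicate 1. In the mRNA comparisons, leaving out each mouse gave 24 to 83 higher and 3 to 29 lower with miR124sp, 0 to 2 and 0 to 2 with miR125sp, and 22 to 65 and 3 to 17 in the difference. Calls over all genes in these fits were not counted. With miR125sp DESeq2 called 5 higher and 8 lower, and the fit without a filter 5 and 7, neither with a count over all genes beside it. The median 3′UTR length was 1756 bases with the longest annotated 3′UTR of each gene, and the median mRNA level 15.0 in genes with 1 transcript. Of the values of single named genes under all alternatives, 565 stayed on their side of the threshold, 75 lost a call, 7 gained one and 1 turned round; the cause was not tested. No paired analysis was possible because the groups compared share fewer than 2 replicate numbers. Low sham counts limit the ratios.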

Other observations

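Among the 296 3′UTRs that the count minimum left out, the median count over the 2 sham libraries together was 7, and 19 had no sham count. The 2 with the most counts in the miR292sp libraries, singled out after their values were seen, were Fam78a and Vat1. Fam78a had 310 and 228 counts with miR124sp, 486 and 435 counts with miR125sp, 818 and 817 counts with miR292sp, and 17 and 8 counts in sham, a ratio of miR292sp to sham in CPM of 35.7. Vat1, a membrane protein of synaptic vesicles in the electric ray, had 420 and 393 counts with miR292sp against 6 and 5 counts in sham (39.3). Bcl2l11, a pro-apoptotic member of the Bcl-2 family, had 190 and 231 counts with miR292sp against 4 and 0 counts in sham. These ratios rest on few sham counts, and the 3′UTRs are not part of the 346.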
